A study of Saccharomyces cerevisiae with 12 samples.

Results

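Transcript levels of 9 genes of methionine salvage and polyamine synthesis were followed in 3 strains of the yeast Saccharomyces cerevisiae, without and with rapamycin. The members were found as the gene probes that the array annotation names SAM4, MHT1, MEU1, MRI1, UTR4, ADI1, SPE2, SPE3 and SPE4, and all 9 were found among the 6388 gene probes of the array. They were chosen from their shared pathway with results of these same arrays already known, the fall of SAM4 among them. The values of SAM4 with rapamycin, with its ranks and intervals, are therefore given as a description with no p. Its call enters only the counts and the statements of which calls were lost. The counts over the 9 genes support nothing beyond themselves.

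Methionine is activated to S-adenosylmethionine (AdoMet), which gives away its methyl group in methylation and, once decarboxylated, its aminopropyl group in polyamine synthesis. Spe2 decarboxylates AdoMet, Spe3 uses the product to turn putrescine into spermidine, and Spe4 turns spermidine into spermine. Each of these transfers leaves methylthioadenosine, which the salvage enzymes Meu1, Mri1, Mde1, Utr4 and Adi1 carry back towards methionine. Sam4 and Mht1 methylate homocysteine to methionine, with AdoMet and S-methylmethionine as their respective methyl donors.

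The strains were HHY168 (labelled WT), YGP200 (labelled Mot1-FRB) and YGP201 (labelled NCB2-FRB), and no other alleles are given in the sources used here. HHY168 is known as a parent strain of the anchor-away method, in which rapamycin ties the FRB tag of a nuclear protein to FKBP12 carried on a ribosomal subunit, so that the protein leaves the nucleus with it; the strain carries a rapamycin-resistant allele of TOR1 and lacks FPR1. Mot1 is the ATPase that removes the TATA-binding protein from DNA, and Ncb2 is the beta subunit of NC2, which binds the TATA-binding protein on promoters. All strains grew in complete synthetic medium with glucose, and each was taken without rapamycin and after 60 min with rapamycin at 1 µg/ml. Each of the 6 groups had 2 cultures, a and b, from independent colonies, and each culture was hybridised against a common reference of RNA from untreated HHY168 on 1 of 12 two-colour arrays. Cultures a were labelled with Cy3 and cultures b with Cy5, so the letter is also the dye orientation. Each tagged strain stands for 1 strain construction, and the transcript data do not show whether the tagged protein left the nucleus. All levels below are log2(culture/reference), and a difference of 1 is a doubling.

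Median culture signals were between 412 and 1231 on 11 arrays, and 95.6% to 99.5% of the probes there were above the blank spots. The array of treated WT culture a stood apart, with a median signal of 69.7, a signal-to-background ratio of 1.70 and 71.3% of probes above the blanks. SPE2 and SPE4 were above the blanks on 11 of 12 arrays, the exception being that array, and the other 7 genes on all 12. Its log signals correlated at 0.67 to 0.74 with the other arrays, which correlated at 0.95 to 0.996 among themselves. The changes of the 9 genes in WT, and their differences from WT, are given with and without it. MOT1 transcript was higher in untreated Mot1-FRB than in untreated WT (0.67 ± 0.09 SE, adjusted p = 0.021 by limma, n = 2 per group), and NCB2 transcript was at -0.67 ± 0.19 (SD, n = 2) in untreated NCB2-FRB and -0.02 ± 0.20 in untreated WT (adjusted p = 1.00, or 0.00027 with the letter as a block). Rapamycin was followed by higher MOT1 transcript in both tagged strains, by 1.09 ± 0.09 in Mot1-FRB and by 1.07 ± 0.09 in NCB2-FRB (adjusted p = 5.6e-05 and 4.2e-05). NCB2 transcript rose as well, by 0.78 ± 0.18 in Mot1-FRB and by 0.64 ± 0.18 in NCB2-FRB (adjusted p = 0.0078 and 0.018).

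In both tagged strains the 9 genes split the same way with rapamycin: SAM4, MHT1, MEU1, MRI1, UTR4 and SPE4 were lower, and ADI1, SPE2 and SPE3 were higher. In the untagged WT none of the 9 passed the test. The changes were modest in size, from 1.25-fold (MEU1 in NCB2-FRB) to 2.03-fold (SAM4 in Mot1-FRB). All 9 were called in Mot1-FRB and all 9 in NCB2-FRB, at a Benjamini-Hochberg adjusted p under 0.05 over all 6388 probes in the limma fit to the 12 arrays. Calls were common over the whole array: 37.3% of all probes in Mot1-FRB (22.0% up and 15.3% down) and 41.0% in NCB2-FRB (22.8% up and 18.2% down). The median change of the 9 genes was -0.51 in Mot1-FRB and -0.39 in NCB2-FRB, against 0.0097 and -0.0061 over all probes. Without SAM4, whose fall was known beforehand, the medians were -0.48 and -0.35, and 8 of 8 were called in each strain. These medians mix falls with 3 rises, and they are a description of a list chosen with results known. In all 18 pairings of a gene with a tagged strain, the treated and untreated cultures did not overlap. The share of all probes without such overlap was not computed, so this is a description only.

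**Figure D1:**
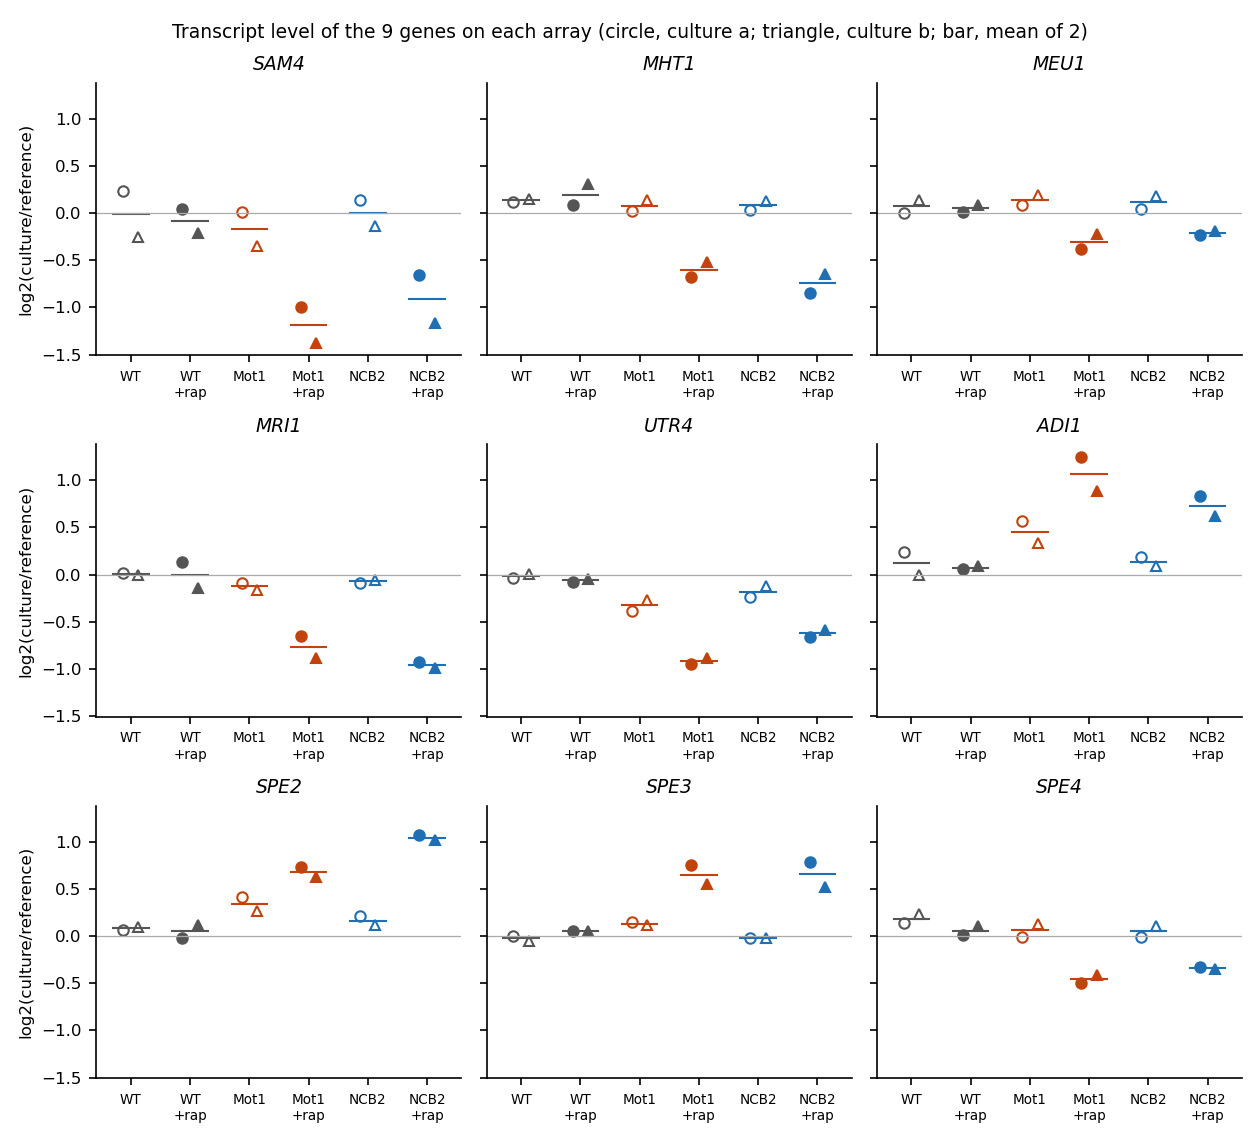
Level of each gene as log2(culture/reference) on the y axis, for the 6 groups on the x axis (WT, Mot1 for Mot1-FRB and NCB2 for NCB2-FRB, with +rap for rapamycin). Circles are cultures a, triangles cultures b, filled symbols are treated, and bars are the mean of 2; in both tagged strains the filled symbols lie apart from the open ones in all 9 panels.

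SAM4 encodes the AdoMet-homocysteine methyltransferase. Its level in Mot1-FRB was 0.02 and -0.35 without rapamycin and -0.997 and -1.38 with it, in cultures a and b. The corresponding levels in NCB2-FRB were 0.14 and -0.14 without rapamycin and -0.66 and -1.16 with it. Treated cultures were the low ones in both strains, and the groups did not overlap. WT was at 0.23 and -0.25 without rapamycin and at 0.05 and -0.21 with it, and there the groups overlapped. The difference was -1.02 ± 0.23 (SE, n = 2 per group) in Mot1-FRB, -0.91 ± 0.23 in NCB2-FRB and -0.07 ± 0.23 in WT. Culture b was below culture a in 6 of 6 groups, by 0.25 to 0.50, so part of the spread followed the letter, which is also the dye. Within each letter the SAM4 difference was -1.01 (a) and -1.02 (b) in Mot1-FRB and -0.80 (a) and -1.03 (b) in NCB2-FRB. Among all 6388 probes, SAM4 ranked 7 from the lowest in Mot1-FRB and 18 in NCB2-FRB.

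MHT1, the S-methylmethionine-homocysteine methyltransferase, also fell in both tagged strains. Its level in Mot1-FRB was 0.02 and 0.14 without rapamycin and -0.68 and -0.52 with it. NCB2-FRB had 0.04 and 0.13 without rapamycin and -0.85 and -0.65 with it. All 4 treated tagged cultures were below the other 8 arrays. WT had 0.12 and 0.15 without rapamycin and 0.09 and 0.31 with it, with overlap. The change was -0.68 ± 0.10 in Mot1-FRB (1.60-fold lower, adjusted p = 0.00085), -0.83 ± 0.10 in NCB2-FRB (1.78-fold lower, adjusted p = 0.00024) and 0.06 ± 0.10 in WT (adjusted p = 1.00).

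Genes for the permeases of the 2 methyl donors lie next to SAM4 and MHT1, and neither was called in both tagged strains. SAM3, the AdoMet permease gene, is the tandem neighbour of SAM4 and passed the test in neither tagged strain (0.16 ± 0.16 in Mot1-FRB and -0.19 ± 0.16 in NCB2-FRB). MMP1, the S-methylmethionine permease gene, is the divergent neighbour of MHT1. It fell in NCB2-FRB (-0.38 ± 0.10, adjusted p = 0.013) and had a value of -0.07 ± 0.10 in Mot1-FRB (adjusted p = 0.64); the difference between these changes did not pass the test (0.32, 95% interval 0.00 to 0.63).

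In the salvage of methylthioadenosine, 3 of the 4 genes fell and ADI1 rose. MEU1 encodes the phosphorylase that opens the pathway and had the smallest fall of the group. Its level in Mot1-FRB was 0.09 and 0.19 without rapamycin and -0.38 and -0.23 with it, and in NCB2-FRB 0.05 and 0.18 without and -0.23 and -0.19 with it. Treated cultures were lower in both strains with no overlap, while WT had 0.00 and 0.14 without and 0.01 and 0.09 with rapamycin. The change was -0.44 ± 0.08 in Mot1-FRB (adjusted p = 0.0027) and -0.32 ± 0.08 in NCB2-FRB (adjusted p = 0.012). The NCB2-FRB call was lost without untreated NCB2-FRB culture b, where the value was -0.26 (adjusted p = 0.086), and with centring on the external control spots (-0.34, adjusted p = 0.068).

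MRI1 encodes the isomerase of methylthioribose-1-phosphate, the next step. It was at -0.09 and -0.16 in untreated Mot1-FRB and at -0.66 and -0.88 in the treated cultures. In NCB2-FRB it was at -0.09 and -0.05 without rapamycin and at -0.93 and -0.99 with it, the lowest levels of this gene on any array. WT cultures lay between -0.14 and 0.13 in both conditions and overlapped. The change was -0.64 ± 0.10 in Mot1-FRB (1.56-fold lower, adjusted p = 0.001) and -0.89 ± 0.10 in NCB2-FRB (1.85-fold lower, adjusted p = 0.00015).

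MDE1, which is not among the 9 genes, encodes the dehydratase between the steps of Mri1 and Utr4. It fell with them, by 0.57 in Mot1-FRB (SE 0.08, adjusted p = 0.00065) and by 0.68 in NCB2-FRB (SE 0.08, adjusted p = 0.00021). UTR4 encodes the enolase-phosphatase that follows. Its level was -0.39 and -0.27 in untreated Mot1-FRB, -0.95 and -0.89 in treated Mot1-FRB, -0.24 and -0.12 in untreated NCB2-FRB and -0.66 and -0.59 in treated NCB2-FRB. Treated cultures were lowest in each strain, and the untreated tagged cultures were already below all 4 WT cultures, which lay between -0.08 and 0.01. The change was -0.59 ± 0.07 in Mot1-FRB (adjusted p = 0.00022) and -0.44 ± 0.07 in NCB2-FRB (adjusted p = 0.00091).

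ADI1 encodes acireductone dioxygenase, which follows Utr4 and forms the keto acid that is then aminated to methionine. In Mot1-FRB it was at 0.57 and 0.34 without rapamycin and at 1.25 and 0.89 with it, and in NCB2-FRB at 0.18 and 0.09 without and at 0.83 and 0.62 with it. It was the member of the salvage pathway with treated cultures above untreated ones, without overlap in either strain. WT was at 0.24 and 0.00 without rapamycin and at 0.06 and 0.09 with it. The rise was 0.62 ± 0.14 in Mot1-FRB (1.53-fold, adjusted p = 0.007) and 0.59 ± 0.14 in NCB2-FRB (1.51-fold, adjusted p = 0.0077). Without untreated Mot1-FRB culture b the Mot1-FRB value was 0.44, with an adjusted p of 0.055.

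Of the polyamine genes, SPE2 and SPE3 rose and SPE4 fell. SPE2, the AdoMet decarboxylase gene, was at 0.41 and 0.27 in untreated and 0.73 and 0.63 in treated Mot1-FRB, and at 0.21 and 0.12 in untreated and 1.07 and 1.01 in treated NCB2-FRB. The treated NCB2-FRB cultures were above every other array, and WT lay between -0.02 and 0.12. The rise was 0.34 ± 0.08 in Mot1-FRB (1.27-fold, adjusted p = 0.0071) and 0.88 ± 0.08 in NCB2-FRB (1.84-fold, adjusted p = 4.2e-05). Without untreated Mot1-FRB culture b the Mot1-FRB value was 0.27, with an adjusted p of 0.059.

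SPE3, the spermidine synthase gene, was at 0.15 and 0.12 in untreated and 0.75 and 0.55 in treated Mot1-FRB. In NCB2-FRB it was at -0.02 and -0.02 without rapamycin and at 0.79 and 0.52 with it. All 4 treated tagged cultures were above the other 8 arrays. The rise was 0.52 ± 0.09 in Mot1-FRB (adjusted p = 0.0024) and 0.68 ± 0.09 in NCB2-FRB (adjusted p = 0.00046). SPE4, the spermine synthase gene, moved the other way. It was at -0.01 and 0.13 in untreated and -0.50 and -0.41 in treated Mot1-FRB, and at -0.01 and 0.11 in untreated and -0.32 and -0.34 in treated NCB2-FRB. The treated tagged cultures were the lowest of the series for this gene. The fall was -0.51 ± 0.07 in Mot1-FRB (adjusted p = 0.00078) and -0.39 ± 0.07 in NCB2-FRB (adjusted p = 0.0031).

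**Figure D2:**
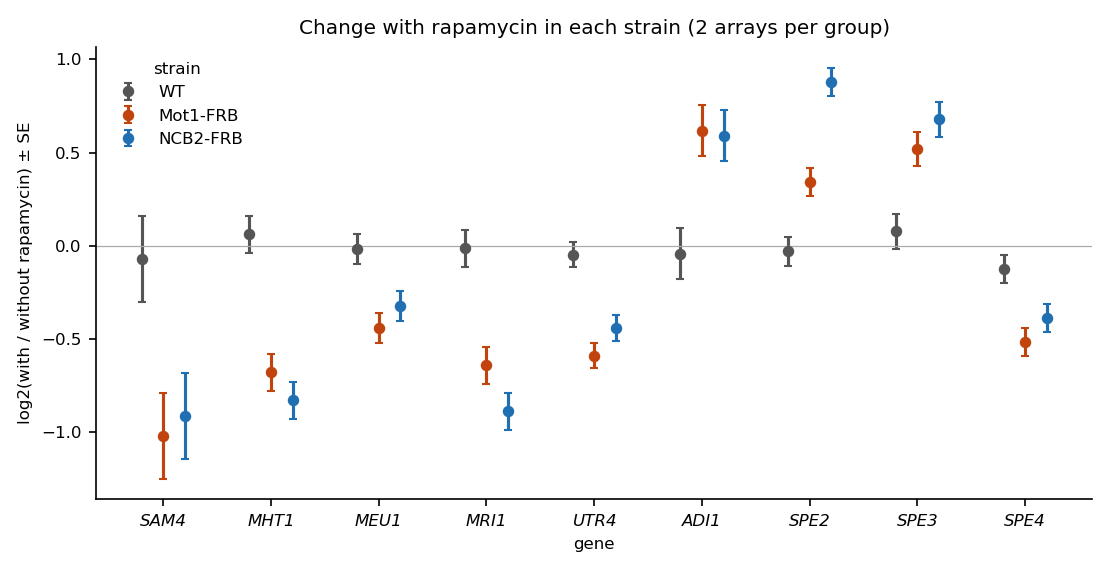
Change with rapamycin, log2(with/without) on the y axis, for each gene on the x axis and each strain by colour; points are limma estimates and bars their SE, 2 cultures per group. Estimates of Mot1-FRB and NCB2-FRB have the same sign for all 9 genes, and those of WT lie between -0.13 and 0.08.

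In WT, rapamycin was followed by values between -0.13 (SPE4) and 0.08 (SPE3), and 0 of the 9 genes were called, beside 0.00% of all probes. At an unadjusted p under 0.05 in the limma fit, 0 of the 9 and 120 of the 6388 probes passed; with the letter as a block, 1 of the 9 and 556 probes passed unadjusted and again none were called. The widest 95% interval was that of SAM4, -0.59 to 0.45, and the narrowest that of UTR4, -0.20 to 0.11. WT treated and untreated cultures did not overlap for UTR4, SPE3 and SPE4, and here too the share over all probes was not computed. Without the dim array of treated culture a, the WT values lay between -0.20 (SAM4) and 0.17 (MHT1), and again 0 of 9 were called. Within single letters, WT values had sizes of 0.011 to 0.19, over 18 values. The 18 values of Mot1-FRB had sizes of 0.32 to 1.02, and those of NCB2-FRB sizes of 0.28 to 1.03.

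Whether the changes in the tagged strains differed from that in WT was tested directly, as the change in the tagged strain minus the change in WT. For Mot1-FRB 8 of the 9 genes were called, beside 19.4% of all probes. The largest differences among them were those of MHT1 (-0.74, 95% interval -1.06 to -0.42, adjusted p = 0.0072), ADI1 (0.66, 0.22 to 1.10, adjusted p = 0.043) and MRI1 (-0.63, -0.94 to -0.31, adjusted p = 0.014). SAM4 differed by -0.95 with an interval of -1.68 to -0.21 and was not among the 8. Of these calls, that of SPE3 (adjusted p = 0.046) was lost in 14 of 19 alternatives, that of SPE2 (adjusted p = 0.04) in 11, and those of MEU1, ADI1 and SPE4 in 8 each. With the letter as a block, all 9 were called, beside 44.7% of probes. With arrays only centred on their median, 0 of the 9 were called, and the share of all probes in that setting is not given. Without the dim WT array, in the fit without a block, the estimates ranged from -0.85 (MHT1) to 0.64 (ADI1).

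For NCB2-FRB minus WT, 6 of 9 were called, beside 23.5% of all probes. These were SPE2 (0.91, 95% interval 0.67 to 1.15, adjusted p = 0.0007), MHT1 (-0.89, -1.21 to -0.57, adjusted p = 0.0027), MRI1 (-0.87, -1.19 to -0.56, adjusted p = 0.0027), ADI1 (0.63, 0.20 to 1.07, adjusted p = 0.043), SPE3 (0.60, 0.30 to 0.90, adjusted p = 0.011) and UTR4 (-0.39, -0.61 to -0.18, adjusted p = 0.018). MEU1 (-0.31, -0.57 to -0.04, adjusted p = 0.09) and SPE4 (-0.26, -0.50 to -0.02, adjusted p = 0.11) did not pass, and SAM4 was at -0.84 (-1.57 to -0.11). With the letter as a block all 9 were called, beside 48.4% of probes. Median centring alone again left 0 of the 9 called, with no share of all probes given. Without the dim WT array the call of ADI1 was lost, at a value of 0.62. Both comparisons share the WT cultures, so their values are not independent.

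**Figure D3:**
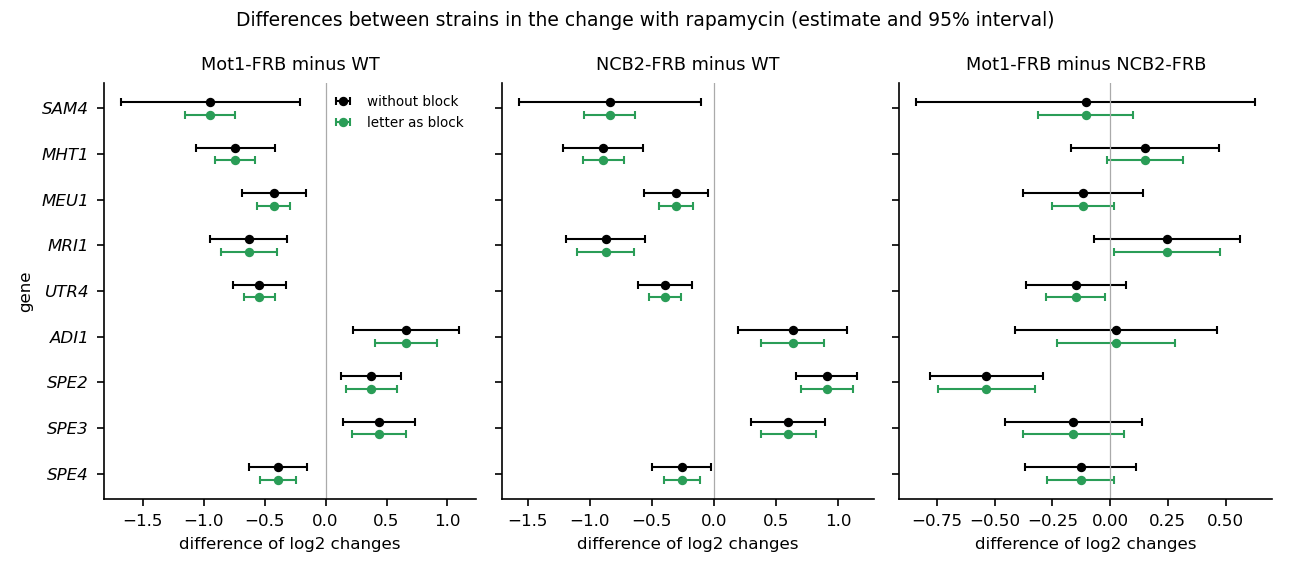
Difference between strains in the change with rapamycin, as log2 on the x axis, for each gene on the y axis; black points are the fit without a block, green points that with the letter as a block, and bars are 95% intervals. In the right panel SPE2 is at -0.54, the estimate farthest from 0 there.

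The Mot1-FRB and NCB2-FRB changes themselves differed in none of the 9 genes at the threshold, where 0.501% of all probes were called; 1 of the 9 (SPE2) and 892 probes passed an unadjusted p under 0.05. SPE2 rose less in Mot1-FRB than in NCB2-FRB by 0.54 (95% interval of the difference -0.78 to -0.29), with an adjusted p of 0.077. With the letter as a block SPE2 was the 1 gene called (adjusted p = 0.0083), beside 16.4% of probes. It was called as well with the authors' deposited log2 values (-0.40, adjusted p = 0.021), beside 542 of 6388 probes. The next largest estimate was that of MRI1 (0.24, interval -0.07 to 0.56, adjusted p = 0.51). For ADI1 the difference was 0.03 with an interval of -0.41 to 0.46, and for SAM4 -0.11 with an interval of -0.84 to 0.63. With the letter as a block these intervals were -0.23 to 0.28 for ADI1 and -0.31 to 0.10 for SAM4. For ADI1 and SAM4, differences in either direction remained within the intervals of both fits. In the limma fit with the letter as a block, the interval was 0.01 to 0.47 for MRI1 and -0.28 to -0.02 for UTR4. Neither was called there (adjusted p = 0.13 and 0.10). In that fit 3 of the 9 and 2059 of 6388 probes passed an unadjusted p under 0.05.

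Before rapamycin, untreated Mot1-FRB was compared with untreated WT to see whether the tag itself went with other levels. None of the 9 genes was called, beside 0.971% of all probes; 3 of the 9 and 634 probes passed an unadjusted p under 0.05. The 3 were UTR4 (-0.31 ± 0.07, adjusted p = 0.091), SPE2 (0.26 ± 0.08, adjusted p = 0.24) and ADI1 (0.33 ± 0.14, adjusted p = 0.46). With the letter as a block these 3 were called (adjusted p = 0.0028 for UTR4, 0.049 for SPE2 and 0.04 for ADI1), beside 7.01% of probes. UTR4 and ADI1 were called with the authors' values, beside 269 of 6388 probes. In each of the 3 the untreated difference had the sign of the change with rapamycin in Mot1-FRB; the untreated Mot1-FRB cultures enter both values. Untreated NCB2-FRB minus untreated WT gave no call among the 9, beside 0.0157% of probes; 1 of the 9 and 127 probes passed unadjusted, that gene being UTR4 (-0.17, 95% interval -0.32 to -0.01). With the letter as a block 2 of the 9 passed unadjusted and none were called.

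Patterns over the 6 group means, each taken minus that of untreated WT, were set side by side by their Euclidean distance, as a description. MHT1 and MRI1 were the closest pair of the 9, at a distance of 0.15. SPE2 and SPE3 were each other's nearest, at 0.34, and so were UTR4 and SPE4, at 0.35. SAM4 was nearest to MRI1 at 0.42, MEU1 to SPE4 at 0.46 and ADI1 to SPE3 at 0.36. Over all probes with a gene symbol, the 5 nearest to SAM4 were DFR1 (0.13), YMR321C (0.14), YKL033W-A (0.18), BNS1 (0.21) and UTP14 (0.23). DFR1 encodes dihydrofolate reductase, and its mean in treated cultures minus untreated WT was -1.07 in Mot1-FRB and -0.95 in NCB2-FRB, beside -1.18 and -0.90 for SAM4. Whether the probe of YMR321C shares signal with that of SAM4 was not tested. These distances were taken over the same 12 arrays and share their reference and dyes.

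The rest of the pathways was read from a list of 42 other genes, of which 41 were measured. With rapamycin 19 rose and 4 fell in Mot1-FRB, 19 rose and 8 fell in NCB2-FRB, and 0 were called in WT, where 2 of the 41 passed an unadjusted p under 0.05 (7 with the letter as a block, and again 0 called). Over all probes 37.3% were called in Mot1-FRB (22.0% up) and 41.0% in NCB2-FRB (22.8% up). Median changes of the 41 were 0.16, 0.22 and 0.05. The steps next to the 9 genes did not all move. SAM1 and SAM2 encode the AdoMet synthetases and are close enough in sequence that their probes may share signal. SAM2 rose in Mot1-FRB (0.58 ± 0.13, adjusted p = 0.0062) and was at 0.31 ± 0.13 in NCB2-FRB (adjusted p = 0.084, or 0.014 with the letter as a block). SAM1 was at 0.03 ± 0.08 in Mot1-FRB and rose slightly in NCB2-FRB (0.24 ± 0.08, adjusted p = 0.048).

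SPE1 encodes ornithine decarboxylase, which makes putrescine, and it passed the test in neither tagged strain (-0.14 ± 0.14 and -0.12 ± 0.14, adjusted p = 0.48 and 0.54), while with the letter as a block it was called lower in both (adjusted p = 0.024 and 0.039). OAZ1, whose product antizyme targets ornithine decarboxylase for breakdown, rose in both (0.52 ± 0.10, adjusted p = 0.0031 in Mot1-FRB, and 0.54 ± 0.10, adjusted p = 0.0022 in NCB2-FRB). FMS1 encodes the polyamine oxidase that turns spermine back into spermidine. It was at 0.31 and 0.37 in untreated and 1.77 and 1.80 in treated Mot1-FRB, and at -0.01 and 0.10 in untreated and 1.21 and 1.42 in treated NCB2-FRB. Treated cultures lay far above all others, and WT stayed between -0.07 and 0.08. The rise was 1.44 ± 0.08 in Mot1-FRB (2.72-fold, adjusted p = 8.5e-06) and 1.27 ± 0.08 in NCB2-FRB (2.42-fold, adjusted p = 1.2e-05).

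CAR2, the ornithine transaminase gene, rose by 2.16 ± 0.14 in Mot1-FRB (4.48-fold, adjusted p = 1.4e-05) and by 2.39 ± 0.14 in NCB2-FRB (5.24-fold, adjusted p = 9.8e-06). CAR1, the arginase gene, rose by 1.19 ± 0.09 and 1.32 ± 0.09 (adjusted p = 3.3e-05 and 1.6e-05). ALD2 and ALD3 encode aldehyde dehydrogenases that make beta-alanine from the aldehyde released by Fms1, and as a near-identical pair their probes may share signal. ALD2 rose by 1.06 ± 0.10 and 1.14 ± 0.10, and ALD3 by 1.75 ± 0.21 and 0.95 ± 0.21, in Mot1-FRB and NCB2-FRB (adjusted p at most 0.0065).

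Among 8 measured genes of polyamine transport 6 rose in Mot1-FRB, and in NCB2-FRB 5 rose and 1 fell, beside 22.0% of all probes up in Mot1-FRB and 22.8% up and 18.2% down in NCB2-FRB. TPO4, a polyamine exporter gene, rose by 1.05 ± 0.13 and 1.29 ± 0.13, and AGP2, whose product takes part in polyamine uptake, by 1.38 ± 0.20 and 1.33 ± 0.20 (adjusted p at most 0.00081). Of the amino donor genes for the last step of salvage, ARO9, an aromatic aminotransferase gene, rose by 1.08 ± 0.17 and 1.04 ± 0.17 (adjusted p = 0.0012 and 0.0013). In untreated Mot1-FRB 3 of the 41 were above untreated WT, beside 0.971% of all probes called, namely CAR2 (0.80 ± 0.14, adjusted p = 0.042), CAR1 (0.76 ± 0.09, adjusted p = 0.0095) and TPO4 (0.71 ± 0.13, adjusted p = 0.04). With the letter as a block 9 of the 41 were called, beside 7.01% of probes. The 3 calls of the fit without a block did not hold when any single untreated culture of Mot1-FRB or WT was left out.

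**Figure D4:**
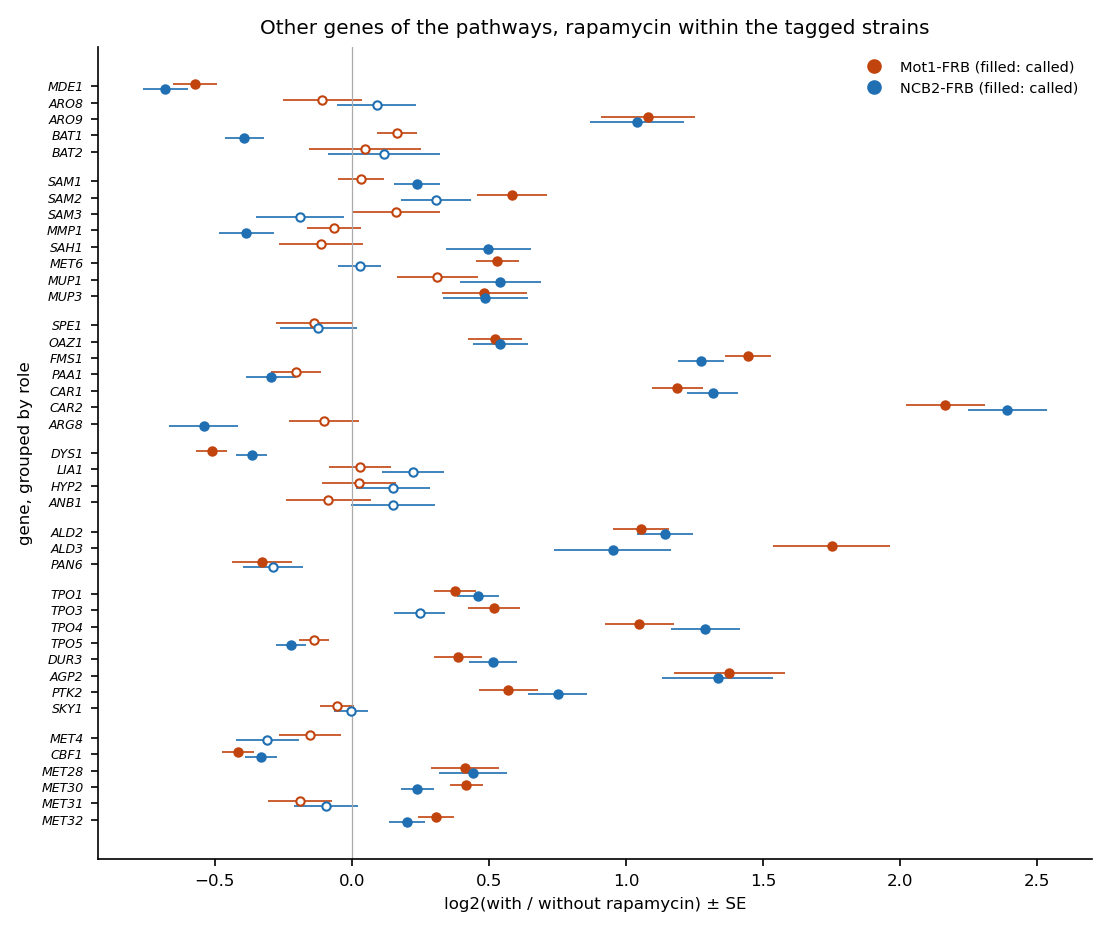
Change with rapamycin, log2(with/without) on the x axis, for the 41 other genes of the pathways on the y axis, in Mot1-FRB (orange) and NCB2-FRB (blue); points are limma estimates, bars their SE, and filled points passed the adjusted threshold. CAR2 at 2.16 and 2.39 lies farthest to the right.

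For the 9 genes the calls within the tagged strains rested on 2 cultures per group, and SAM4, MEU1, ADI1 and SPE2 each lost a call in at least 1 strain when a single culture was left out. All 342 values recomputed for the 9 genes in the tagged strains under the 19 alternatives kept the sign given here. Many of these signs could not have changed. Blocking on the letter, leaving out dim probes and leaving out a culture of another strain do not alter the estimate within a strain.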

How the data were processed

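RNA from 12 cultures was amplified, labelled and hybridised against a common reference, and the arrays were read with an Agilent G2565BA scanner and Imagene, per the labels' protocols (Imagene version: not given in the sources used here). Per the file headers, the deposited scanner files give the unnormalized intensity of every spot and its background in each channel. The authors' deposited log2 values come from print-tip LOESS without background subtraction (span 0.4) and a gene-specific dye-bias correction, per the labels' protocols.

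Here the signal mean and background median were corrected by normexp (offset 50) and normalized by loess fitted to the gene spots (span 0.3, 4 iterations). All ratios were expressed as culture/reference, and the 2 spots of each probe were averaged. The suffix r in the sample names was read as rapamycin. limma 3.58.1 (R 4.3.3) was fitted to all 12 arrays with 1 mean per group, moderated with 6 residual and 3.00 prior degrees of freedom. Tests were two-sided, with Benjamini-Hochberg adjustment over 6388 probes and a threshold of 0.05. Intervals are 95% intervals of this fit unless the letter as a block is named. The fit was tested on simulated data with errors independent between arrays, so not with deviations shared by same-lettered arrays. Same-lettered arrays deviated together (correlations 0.48 to 0.82 over 15 pairs of groups), so the letter pairs the arrays at least through the dye, and values from a fit that blocks on the letter are printed where it changed a call. Precision is limited by the number of arrays.

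The members and lists were chosen with earlier results of these data known. All 9 members are named; from the pathway list, up to 6 called genes per comparison with the largest change, plus SAM1, SAM2, SPE1, OAZ1, FMS1, MDE1, MMP1 and SAM3; the tagged genes; and the 5 probes nearest to SAM4. Locus tags gave the neighbours. No sequence was used here, and cross-hybridisation was not tested. A block for slide or scan was not used.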

Additional observations from a re-analysis of the deposited data

Results flagged for a closer look

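The change with rapamycin differed between a tagged strain and WT in the limma test of the difference for 8 of the 9 genes in Mot1-FRB and 6 in NCB2-FRB. Over all probes 19.4% and 23.5% were called in these tests. Values are the log2 change in the tagged strain minus the log2 change in WT. In Mot1-FRB these were -0.74 for MHT1, -0.42 for MEU1, -0.63 for MRI1, -0.54 for UTR4, 0.66 for ADI1, 0.37 for SPE2, 0.44 for SPE3 and -0.39 for SPE4. In NCB2-FRB they were -0.89 for MHT1, -0.87 for MRI1, -0.39 for UTR4, 0.63 for ADI1, 0.91 for SPE2 and 0.60 for SPE3. Of the other pathway genes named here, the Mot1-FRB difference was -0.59 for MDE1, 0.89 for ARO9, 0.71 for OAZ1, 1.39 for FMS1, 0.94 for CAR1, 2.08 for CAR2, 1.00 for ALD2, 1.70 for ALD3, 0.69 for TPO4 and 1.21 for AGP2. In NCB2-FRB it was -0.70 for MDE1, 0.84 for ARO9, 0.73 for OAZ1, 1.22 for FMS1, 1.07 for CAR1, 2.31 for CAR2, 1.09 for ALD2, 0.93 for TPO4 and 1.17 for AGP2. The treated WT culture a, which enters each of these, had a median signal of 69.7 against 412 to 1231 on the other arrays, and its part in them was not tested beyond leaving it out. ARO9 and ALD3 were not above the blanks on that array, among 11 of the 41 pathway genes. Without it AGP2 in both strains (1.20 and 1.15) and TPO4 in Mot1-FRB (0.67) were no longer called, and ARO9 was at 1.15 and 1.11. These pathway values had been picked as called with that array, and the share of all probes called without it is not given here. The Mot1-FRB calls of MEU1, ADI1, SPE2 and SPE3 and the NCB2-FRB call of ADI1 were also lost without it.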

How the results depend on the processing

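In all, 7 processing alternatives and 12 fits that each left out 1 culture were computed. Counts of the 9 genes called moved as follows. Where no share of all probes is given, a loss in these genes cannot be told from a loss over the whole array. With arrays only centred on their median, 4 of 9 were called in Mot1-FRB, and 0 in both differences from WT. In that setting 7 of the 41 other pathway genes were called in Mot1-FRB, beside 23 in the main fit. Without background subtraction and with centring on the external control spots that were above the blanks, 5 were called for Mot1-FRB minus WT; the latter moved the median of all probes in that comparison by -0.11. With the authors' deposited log2 values, 1 gene was called for Mot1-FRB minus NCB2-FRB, beside 542 of 6388 probes. With the same values 2 were called for untreated Mot1-FRB minus WT, beside 269 of 6388 probes. With the letter as a block these counts were 1 and 3, beside 16.4% and 7.01% of probes. The block changed no other call of the 9 genes beyond those given above. Leaving out 1 culture gave 3 to 8 calls for Mot1-FRB minus WT (3 without untreated Mot1-FRB b, treated Mot1-FRB a or untreated WT a, 4 without treated WT a or b, 5 without untreated Mot1-FRB a or untreated NCB2-FRB a or b), 4 to 6 for NCB2-FRB minus WT, 7 to 9 in Mot1-FRB and 8 or 9 in NCB2-FRB. The fall of SAM4 lay between -1.21 and -0.83 in Mot1-FRB and between -1.16 and -0.66 in NCB2-FRB over those fits; its call was lost in each tagged strain when untreated a, or else treated b, of that strain was left out. Median centring also removed the calls of MEU1, UTR4 and SPE4 in both strains and of SPE2 and SPE3 in Mot1-FRB, and external control centring that of MEU1 in NCB2-FRB. The cause of these moves was not tested. Where a fit left a group with 1 culture, that culture was taken to vary like the others. A block for slide or scan was not run, since no header gave one. The treated WT culture a was limited by signal over background (1.70).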
